A study of Mus musculus with 5 samples.

Results

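Nuclear receptors are transcription factors that bind DNA through zinc fingers and, in most cases, are switched by a small lipid-soluble ligand. Those for vitamin D, retinoic acid, thyroid hormone, fatty acids and oxysterols pair with a retinoid X receptor (RXR). Steroid receptors such as the glucocorticoid receptor are held ready by heat shock chaperones, and the NR4A receptors act without a known hormone and are controlled mainly through their own transcription. In T cells the NR4A genes are rapidly induced by the antigen receptor. A set of 43 genes of this family, including Vdr, the vitamin D receptor, was taken by gene name from the annotated rows of the tables, out of 57186 gene IDs. All 43 had 1 row in every library.

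Tfr cells are follicular regulatory T cells, a CD4 subset marked by Foxp3 that restrains germinal centre reactions. The RNA came from Tfr cells sorted from mouse spleen by Foxp3, CXCR5, PD-1 and ICOS. The WT group (n = 3 libraries) came from mice with a Foxp3-GFP reporter. The Cebpa_KO group (n = 2) came from Foxp3-Cre Cebpa-flox/flox mice, in which Cre expressed from Foxp3 deletes Cebpa, the gene of C/EBP alpha, in regulatory T cells. Both groups had received imiquimod, a TLR7 agonist, and were taken at 21 days. The age of the mice is not given in the labels. Every library is a pool of cells from more than 1 mouse, and the p-values reflect variation from pool to pool. The comparison asks how the genes of these receptors differ in Tfr cells without C/EBP alpha. Levels are deposited TPM, an abundance normalised to transcript length and library, scaled further between libraries and given as single values or as mean ± SD. Because TPM is per length, levels can be set side by side between genes. Differences are Cebpa_KO minus WT in log2(scaled TPM + 1), which understates the change of low genes. Each has a standard error (SE) and an adjusted p from limma with Benjamini-Hochberg adjustment over the 16254 genes tested, and a gene passed when that p was under 0.05.

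Aligned depth was 6.76 to 7.08 gigabases per library. Cebpa stood at 12.8 to 17.7 in WT libraries against 0.317 and 0.550 in Cebpa_KO, a log2 difference of -3.42 (limma adjusted p = 0.00371, and 0.0512 without Cebpa_KO replicate 2). The exact permutation test, two-sided, gave p = 0.1, the smallest p that 3 libraries against 2 allow. Foxp3, which defines the sorted cells, was at 83.0 to 107.3 in WT libraries against 6.74 and 5.58 in Cebpa_KO. Cd4, Cxcr5, Pdcd1 and Icos were at 141.4 or more in every library. However, 6 of the 8 listed Tfr markers, Cxcr5 and Icos among them, fell, where 9.82% of all genes tested fell. Xist reached 11.4 and 10.7 in the Cebpa_KO libraries but no more than 0.0220 in WT, and a sum of 4 Y-linked genes was 151.4 or more in WT and 0.0311 or less in Cebpa_KO. Sex, the Foxp3 allele and the Cebpa deletion therefore cannot be told apart. WT replicate 3 stood apart from the other WT libraries, since 18 genes of handling and heat shock summed to 1762 and 1873 in WT replicates 1 and 2, to 6998 in WT replicate 3 and to 7792 and 8260 in Cebpa_KO. In these bulk samples fewer cells of a type and less RNA per cell cannot be told apart.

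Of the 43 receptors, 18 reached a deposited TPM of at least 1 in all 5 libraries and 20 did so in at least 2, which was the condition for the test. Vdr rose 8.82-fold in Cebpa_KO, and Rxra, an RXR partner, and Esrra, an orphan receptor of mitochondrial genes, fell. These were the only 3 of the 20 that passed, 15% of the tested receptors, where 19.7% of all genes tested passed. The 1 rise stands beside 9.93% of all genes and the 2 falls beside 9.82%, shares close to the background. The median difference of the 20 was -0.12, and that of all genes tested 0.01. The groups did not overlap for 10 of the 20 receptors (50%, against 56.7% of all genes), with Cebpa_KO lower in 7 (28.0% of all genes) and higher in 3 (28.7%). At an unadjusted p under 0.05 in limma there were 6 of the 20, and 37.6% of all genes. Since only members that reached the filter in any 2 libraries were tested, these counts describe the expressed members and not the family. With either Cebpa_KO library left out, neither these 3 receptors nor any of the 20 partner and target genes given below as risen or fallen by the naming rule passed in limma.

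**Figure D1:**
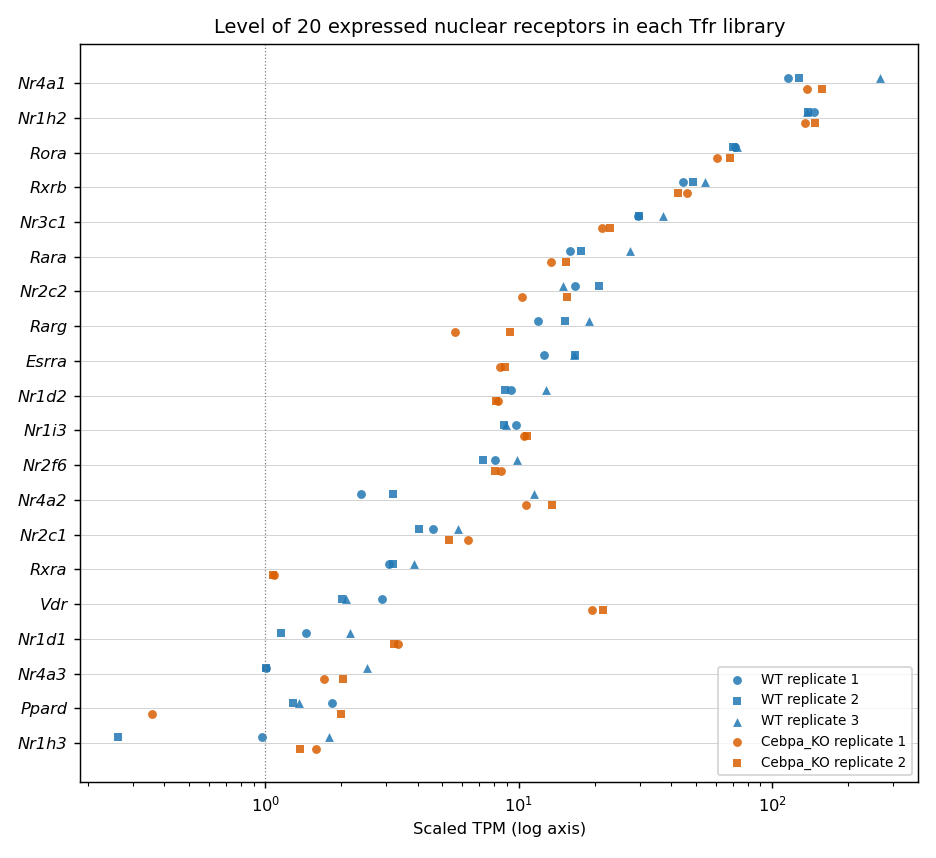
Scaled TPM (log axis) of the 20 receptors that were tested, ordered by their WT mean, with 1 point per library (WT blue, Cebpa_KO orange) and a dotted line at a TPM of 1. Vdr at 19.6 and 21.5 in Cebpa_KO is far to the right of its WT points, while the points of both groups lie close together for Nr1h2 and Rora.

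The Tfr repertoire was dominated by few receptors. Nr4a1, Nr1h2, Rora and Rxrb made up 73.0% to 74.7% of the summed level of all 43 members in every library. Nr4a1 had the highest mean in both groups, at 170.3 ± 84.3 in WT and 147.2 ± 14.7 in Cebpa_KO, followed by Nr1h2 at 140.7 ± 4.67 and 141.0 ± 9.43. Nr1h2 was above Nr4a1 in WT replicates 1 and 2 and below it in WT replicate 3, where Nr4a1 was at 267.3. In both Cebpa_KO libraries Nr4a1 was above Nr1h2, with spreads that overlapped. The order of these receptors is not resolved. The order of the other abundant receptors, Rora, Rxrb and Nr3c1, was the same in both groups. Vdr moved from rank 16 of 20 in WT to rank 6 of 20 in Cebpa_KO, and Rxra from rank 15 to rank 20.

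Vdr (ENSMUSG00000022479, mm39 chromosome 15, 97752306 to 97808511, minus strand) encodes the receptor of calcitriol, the active form of vitamin D. It stood at 2.89, 2.01 and 2.09 in WT libraries against 19.6 and 21.5 in Cebpa_KO. Both Cebpa_KO libraries were far above the 3 WT libraries, and the gap between the groups was many times the spread within either. The log2 difference was 2.702 (SE 0.17, limma adjusted p = 0.00433), and 37 of the 16254 genes had a larger rise. The limma adjusted p was 0.0582 without Cebpa_KO replicate 1 and 0.0678 without Cebpa_KO replicate 2, in a range of 0.00169 to 0.0678 over all alternatives. The exact permutation test, two-sided, gave p = 0.1, the smallest it can give here. Measured from WT replicates 1 and 2 alone the difference was 2.65, and from WT replicate 3 alone 2.80. The part of handling in the Vdr values was not tested. No annotated gene overlaps the Vdr locus.

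Markers of other cell types were detected in every library, at sums that differed between libraries, and their part in the Vdr values was not tested. The summed level of 10 macrophage and monocyte markers was 64.0 to 125.6 in WT libraries, 147.6 in Cebpa_KO replicate 1 and 58.3 in Cebpa_KO replicate 2. That of 7 neutrophil markers was 11.5 to 83.0 in WT libraries, 331.2 in Cebpa_KO replicate 1 and 70.8 in Cebpa_KO replicate 2, and 6 B cell markers summed to 132.0 to 178.2, 241.8 and 53.3 in the same order. Summed levels were 3.56 to 7.34, 6.17 and 7.32 for 7 dendritic cell markers and 205.6 to 803.4, 445.4 and 272.2 for 5 plasma cell markers. None of these lists had a marker at 0 in all libraries, and Clec9a, a dendritic cell marker, was at 0 in all WT libraries. For 5 erythroid markers the sums were 34.1 to 381.6, 1171 and 127.8, and for 5 markers of natural killer and innate lymphoid cells they were 50.8 to 83.7, 25.5 and 22.4.

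The stretch of 250 bases upstream of the annotated start of Vdr is shown because Vdr changed most of the family, with the same stretch for Rxra, which has 2 starts, and Esrra, the receptors that fell, and for Nr4a1, which had the highest mean. The sequences are from RefSeq on GRCm38.p6, another build than the mm39 of the tables, and 40 of the 43 members had an entry (none for Nr3c1, Nr5a1 and Thra). Capitals mark every match, on either strand, to AGGTCA (the core hexamer that many nuclear receptors bind), AAAGGTCA (the element of NR4A receptors, which contains the hexamer), TTGCNNAA (a core of C/EBP sites) and TGCGTCA (a CRE-like element, chosen after the Nr4a1 sequence was seen).
Vdr (chr15:97908297-97908546, minus strand): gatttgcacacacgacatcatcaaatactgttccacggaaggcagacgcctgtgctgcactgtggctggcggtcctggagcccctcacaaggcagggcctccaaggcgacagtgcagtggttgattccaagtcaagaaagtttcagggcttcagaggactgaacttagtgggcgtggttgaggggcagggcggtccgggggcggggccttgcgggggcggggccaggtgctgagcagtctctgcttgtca
Rxra, first start (chr2:27676951-27677200, plus strand): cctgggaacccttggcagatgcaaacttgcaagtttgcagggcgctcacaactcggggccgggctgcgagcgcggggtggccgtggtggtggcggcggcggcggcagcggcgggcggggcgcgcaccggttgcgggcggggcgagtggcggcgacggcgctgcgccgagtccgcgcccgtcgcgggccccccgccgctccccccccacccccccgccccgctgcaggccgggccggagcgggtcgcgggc
Rxra, second start (chr2:27709042-27709291, plus strand): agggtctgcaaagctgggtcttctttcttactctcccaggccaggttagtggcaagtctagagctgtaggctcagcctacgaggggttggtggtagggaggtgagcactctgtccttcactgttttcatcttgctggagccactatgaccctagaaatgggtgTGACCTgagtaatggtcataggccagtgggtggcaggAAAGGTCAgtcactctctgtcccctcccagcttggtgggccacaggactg
Esrra (chr19:6921809-6922058, minus strand): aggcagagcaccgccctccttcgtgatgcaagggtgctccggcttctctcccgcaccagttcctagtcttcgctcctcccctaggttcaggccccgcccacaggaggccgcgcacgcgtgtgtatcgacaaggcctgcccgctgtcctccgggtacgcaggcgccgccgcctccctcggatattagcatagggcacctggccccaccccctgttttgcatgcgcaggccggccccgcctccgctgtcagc
Nr4a1 (chr15:101266596-101266845, plus strand): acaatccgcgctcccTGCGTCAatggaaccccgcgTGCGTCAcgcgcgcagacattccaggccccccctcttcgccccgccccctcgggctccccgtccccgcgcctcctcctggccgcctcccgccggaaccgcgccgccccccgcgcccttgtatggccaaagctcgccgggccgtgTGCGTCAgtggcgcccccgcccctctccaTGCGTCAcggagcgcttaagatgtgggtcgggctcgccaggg
No match to these 4 motifs was present in the stretch of Vdr, of Esrra or of the first Rxra start. The second Rxra start had 2 hexamers, 1 of them within the NR4A element that begins 50 bases upstream. The Nr4a1 stretch held TGCGTCA 4 times, beginning 235, 215, 71 and 42 bases upstream of the start. Among 32851 promoter stretches of the same length, 14.0% held AGGTCA, 1.34% AAAGGTCA, 9.56% TTGCNNAA and 1.75% TGCGTCA. Of the 58 stretches of the members, 11, 2, 10 and 1 held them. A match describes these letters and not a bound site.

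RXRs are the obligate partners of the vitamin D, retinoic acid and several lipid receptors. Rxra (chromosome 2, 27566452 to 27652969) was at 3.07, 3.20 and 3.87 in WT libraries against 1.08 and 1.08 in Cebpa_KO. Every WT library was above both Cebpa_KO libraries, and the means differed 3.13-fold (log2 difference -1.07, SE 0.16, limma adjusted p = 0.0138). The call ended without WT replicate 2 (limma adjusted p = 0.0530), without Cebpa_KO replicate 1 or 2 (0.109 and 0.107) and with WT replicate 3 standing alone for WT (0.0515), in a range of 0.00632 to 0.109 over all alternatives. Rxrb, the main RXR of these cells, was at 44.6, 48.7 and 54.2 in WT libraries against 46.2 and 42.6, groups that overlapped, and did not pass (difference -0.14, SE 0.11, limma adjusted p = 0.403). Rxrg was listed at 0 in 4 libraries. Rxrb gave 93.3% to 93.8% of the RXR sum in WT and 97.5% to 97.7% in Cebpa_KO, so that sum was 52.5 ± 5.22 in WT and 45.5 ± 2.57 in Cebpa_KO. Vdr amounted to 3.60% to 6.06% of the RXR sum in WT and to 41.4% and 49.3% in Cebpa_KO.

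Of the retinoic acid receptors neither Rarg nor Rara passed. Rarg was at 11.9, 15.3 and 18.9 in WT libraries against 5.59 and 9.24 in Cebpa_KO, without overlap (difference -0.97, SE 0.27, limma adjusted p = 0.0589). Rara was at 16.0, 17.6 and 27.5 against 13.4 and 15.3 (difference -0.44, SE 0.25, limma adjusted p = 0.250), with WT replicate 3 far above the other libraries. Rarb did not exceed 0.00897. The RAR sum was 35.7 ± 9.57 in WT and 21.8 ± 3.96 in Cebpa_KO. In a list of 15 genes of retinoic acid synthesis and response, 5 were tested and 2 fell, where 9.82% of all genes tested fell. They were Dhrs3, a retinaldehyde reductase that retinoic acid induces, from 19.9 ± 1.21 to 10.6 ± 1.49, and Itga4, the integrin alpha chain of gut homing, from 33.1 ± 5.07 to 20.4 ± 2.99 (limma adjusted p = 0.0154 and 0.0454). Dhrs3 passed in 13 of 17 settings, counting the one reported, and was lost without WT replicate 2 (limma adjusted p = 0.0536). Itga4 passed in 8 of 17 and in none that left a library out, with a limma adjusted p between 0.0235 and 0.238. Rdh10 and Tgm2 differed by -0.13 and 0.35 and did not pass. Of the genes below the filter, Cyp26a1 was at 0, 0.130 and 0.0261 in WT libraries against 0.809 and 1.05 in Cebpa_KO. Crabp2 was at 0.119, 0.165 and 0 against 0.415 and 0.570. Both were higher in Cebpa_KO without overlap, as were 28.7% of all genes tested, and were not tested. Stra6 and Ccr9, also below the filter, had lower means in Cebpa_KO with groups that overlapped. Of 9 genes of vitamin D synthesis and response, 2 were tested and neither passed, Pdia3 with a difference of 0.22 and Dhcr7 with -0.34. With so few genes tested, the list does not show whether the activity of the receptor differed. Cyp24a1, the enzyme that degrades calcitriol and is the best known target of the receptor, was listed at 0.0201 or less in every library. Cyp27b1, which makes calcitriol, was listed at 0.0570 or less. These last 2 genes were named after their values were seen.

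**Figure D2:**
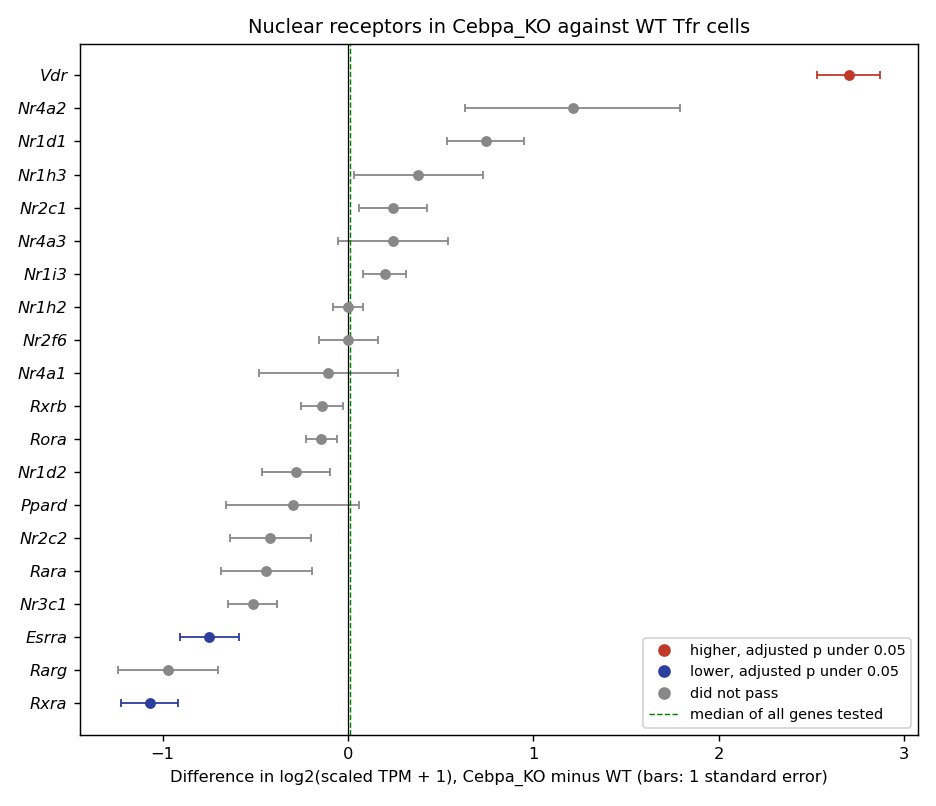
Difference in log2(scaled TPM + 1), Cebpa_KO minus WT, of the 20 tested receptors, with bars of 1 standard error. Vdr at 2.702 stands far from the others, Rxra at -1.07 and Esrra at -0.75 are the falls that passed, and Rarg at -0.97 has a wider bar and did not pass.

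Among the receptors of oxysterols, fatty acids and xenobiotics, none of the 4 tested passed. Nr1h2, the liver X receptor (LXR) beta, was at 146.1, 138.4 and 137.7 in WT libraries against 134.4 and 147.7, with a difference of 0.00 (SE 0.08). Nr1h3, LXR alpha, was at 0.969, 0.263 and 1.78 against 1.59 and 1.37. Ppard, a fatty acid receptor, was at 1.83, 1.28 and 1.36 against 0.359 and 2.00, so its Cebpa_KO libraries lay on either side of the WT group. Nr1i3, a xenobiotic receptor better known from liver, was listed at 8.79 to 9.77 in WT libraries against 10.5 and 10.8, without overlap, but 4691 bases of its locus overlap Tomm40l on the other strand, at 11.7 to 19.7, and the strand setting of the counting is not given. Pparg reached 1.38 in Cebpa_KO replicate 2, was at 0.504 or less in the other libraries and was not tested.

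Of 8 LXR targets, all tested, 3 fell and none rose, where 9.82% of all genes fell and 9.93% rose. Mylip, which degrades the LDL receptor, went from 15.3 ± 2.04 to 8.35 ± 1.43, the sterol exporter Abcg1 from 13.2 ± 1.07 to 8.90 ± 0.318 and the phospholipid enzyme Lpcat3 from 43.5 ± 3.72 to 31.0 ± 1.63 (limma adjusted p = 0.0321, 0.0412 and 0.0376). Mylip passed in 11 of 17 settings, Abcg1 in 9 and Lpcat3 in 10. All 3 were lost with no filter on low genes and without WT replicate 1 or WT replicate 2, and their limma adjusted p reached 0.178, 0.212 and 0.207. Abca1, a cholesterol exporter, was at 1.25, 1.46 and 3.05 against 0.831 and 0.4996 and did not pass. The remaining targets, Srebf1, Scd2, Apoe and Scd1, differed by -0.02, 0.01, -0.13 and 0.77 and did not pass. The list's median difference was -0.30. Of 10 PPAR targets 7 were tested, and 1 rose and 2 fell (9.93% and 9.82% of all genes). Angptl4, a lipase inhibitor, rose from 4.08 ± 0.238 to 9.98 ± 0.618 (limma adjusted p = 0.00946). Cpt1a, which brings fatty acids into mitochondria, fell from 45.4 ± 6.04 to 25.5 ± 1.66, and the lipid carrier Fabp4 fell from 3.56 ± 1.67 to 0.198 ± 0.0273 (limma adjusted p = 0.0201 and 0.0190). Angptl4 passed in 15 of 17 settings, Cpt1a in 11 of 17 and Fabp4 in 11 of 15. Cpt1a was lost without WT replicate 1 or 2 (limma adjusted p = 0.0570 and 0.0620) and Fabp4 without WT replicate 2 (0.0620). The median of that list was -0.16.

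Nr1d1 and Nr1d2 encode the heme-binding REV-ERB repressors of the circadian clock, and Rora encodes an activator at the same DNA elements. Nr1d1 was at 1.45, 1.15 and 2.17 in WT libraries against 3.34 and 3.23, without overlap, and did not pass (difference 0.74, SE 0.21, limma adjusted p = 0.0607). It shares 1075 bases with Thra on the other strand, which was at 0.186 to 0.982. Without WT replicate 3 the difference was 0.90 and passed (limma adjusted p = 0.0223, with a range of 0.0188 to 0.249 over all alternatives). Nr1d2 was at 9.35, 8.84 and 12.8 against 8.31 and 8.17, and Rora at 71.1, 69.9 and 72.6 against 60.8 and 68.2. Both were lower in Cebpa_KO without overlap, by 0.28 and 0.14 on the log2 scale, and did not pass. Of 15 clock genes, 11 were tested, and 1 rose and 2 fell (9.93% and 9.82% of all genes). Bhlhe40, a repressor of the clock that T cell activation induces, was at 74.8, 77.7 and 176.4 in WT libraries against 476.2 and 509.0 (difference 2.27, limma adjusted p = 0.0201). Its difference was 2.68 from WT replicates 1 and 2 and 1.48 from WT replicate 3, and it was lost without WT replicate 1 or 2 (limma adjusted p = 0.0549 and 0.0672). Dbp, a clock output factor that CLOCK and BMAL1 activate, fell from 16.3 ± 0.974 to 3.72 ± 0.677, and Cry2, a repressor of the clock, fell from 14.9 ± 1.90 to 5.92 ± 0.653 (limma adjusted p = 0.00549 and 0.0110). Bmal1, the target that REV-ERB represses, was at 34.4, 44.3 and 35.0 against 28.2 and 28.3 and did not pass (difference -0.40, limma adjusted p = 0.0927). The hour of sampling is not given in the labels, and its part in these values was not tested.

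Esrra (chromosome 19, 6888345 to 6899208), estrogen-related receptor alpha, drives genes of mitochondrial respiration with the PGC-1 coactivators. The locus shares 73 bases with Trmt112 on the other strand, at 100.3 to 130.3 over all libraries. Esrra was at 12.6, 16.6 and 16.6 in WT libraries against 8.42 and 8.85. All WT libraries were above both Cebpa_KO libraries, and the difference was -0.75 (SE 0.16, limma adjusted p = 0.0313). The call ended with no filter on low genes, at an adjusted p of 0.0911, with the replicate block, at 0.0617, and with WT replicate 3 standing alone for WT, at 0.0508. It also ended without WT replicate 2 (limma adjusted p = 0.0930) and without Cebpa_KO replicate 1 or 2 (0.177 and 0.156), in a range of 0.0132 to 0.177 over all alternatives. Of its coactivators, Ppargc1b was at 6.36 to 9.27 in WT libraries against 6.57 and 6.23, and Ppargc1a did not exceed 0.0546.

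Nr3c1, the glucocorticoid receptor, was at 29.6, 29.8 and 37.1 in WT libraries against 21.3 and 22.9. The groups did not overlap and the difference was -0.51 (SE 0.13), but the limma adjusted p of 0.0504 lay just outside the threshold. It passed in 7 of 16 alternatives, and the limma adjusted p lay between 0.0254 and 0.249 over all alternatives. Of 13 glucocorticoid receptor chaperones and response genes, 12 were tested, and 5 rose and 2 fell (9.93% and 9.82% of all genes). The rises were all chaperones or cochaperones. The list's median difference was 0.82, and -0.06 from WT replicate 3 alone, but each of the 5 rises was also positive from WT replicate 3, between 0.56 for Hsp90ab1 and 0.88 for Ptges3. Fkbp4, an immunophilin that aids the receptor's entry into the nucleus, went from 132.6 ± 19.2 to 281.9 ± 4.09, and Stip1 and Ptges3, cochaperones of HSP90, went from 264.6 ± 14.4 to 467.5 ± 6.38 and from 87.0 ± 3.50 to 154.7 ± 14.1 (limma adjusted p = 0.00968, 0.00702 and 0.00821). Hsp90aa1 and Hsp90ab1, the other rises, and Fkbp5, a fall, were named after their values were seen, with differences of 1.18, 0.95 and -0.60. Hsd11b1, which regenerates active glucocorticoid, fell from 159.6 ± 3.30 to 112.4 ± 2.86 (limma adjusted p = 0.0128, and 0.0532 without WT replicate 2). Fkbp4, Stip1, Ptges3 and both HSP90 genes serve many client proteins besides the receptor, and the handling and heat shock sum was also highest in the Cebpa_KO libraries. Its part in the chaperone rises was not tested.

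None of the 3 NR4A receptors passed, and their levels in WT replicate 3 were well above those in WT replicates 1 and 2. Nr4a1 was at 115.5, 128.0 and 267.3 in WT replicates 1 to 3 against 136.7 and 157.6 in Cebpa_KO. The difference was -0.11 (SE 0.37, limma adjusted p = 0.855) from all WT libraries, 0.27 from WT replicates 1 and 2, and -0.86 from WT replicate 3. Fitted with WT replicate 3 standing alone for WT, it was -0.87 and passed (limma adjusted p = 0.0494). Nr4a2 was at 2.39, 3.19 and 11.5 in WT replicates 1 to 3 against 10.7 and 13.5, so WT replicate 3 lay within the Cebpa_KO range. Its difference of 1.21 (SE 0.58) did not pass (limma adjusted p = 0.191). Without WT replicate 3 it was 1.79 and passed (limma adjusted p = 0.00958, in a range of 0.00958 to 0.868 over all alternatives), and with WT replicate 3 alone it was 0.05. Nr4a3 was at 1.01, 1.01 and 2.52 against 1.71 and 2.03 and did not pass (difference 0.24). Fos, an immediate early gene of the handling list, was at 48.2, 66.8 and 618.8 in WT replicates 1 to 3 against 582.9 and 616.9. Of the 18 genes of that list, 4 rose (9.93% of all genes), 0 fell and 14, Fos among them, did not pass. The list was not uniform, since its member Egr1 was at 149.9, 165.0 and 189.8 against 124.5 and 123.4. The part of handling in the NR4A levels was not tested. Nr4a1 made up 95.01% to 97.1% of the NR4A sum in WT and 91.7% and 91.0% in Cebpa_KO.

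**Figure D3:**
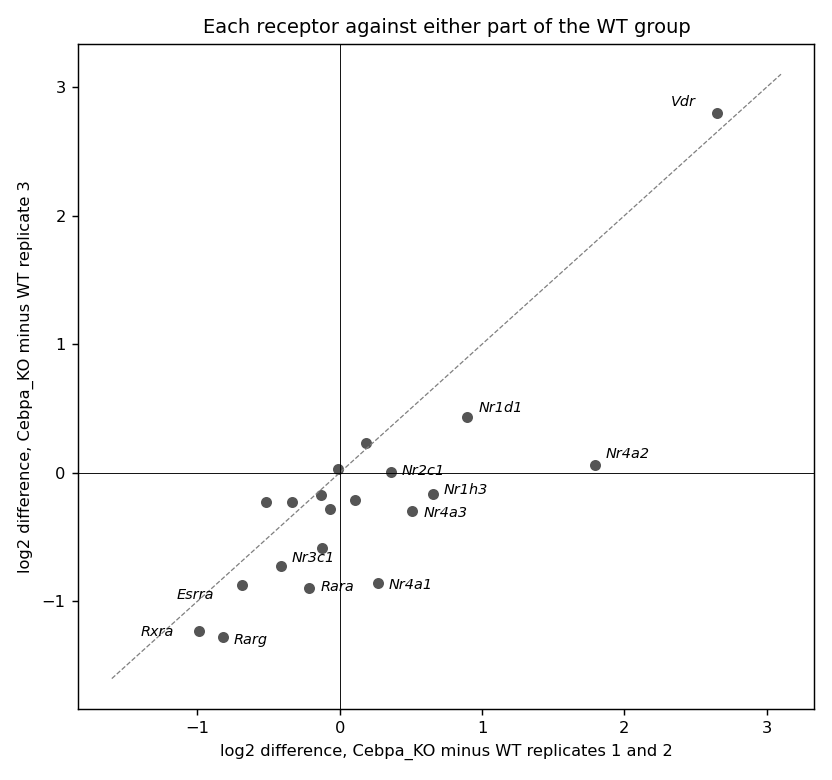
Log2 difference of each tested receptor, Cebpa_KO minus WT replicates 1 and 2 (horizontal) and Cebpa_KO minus WT replicate 3 (vertical), with a dashed line where both are equal. Vdr lies near the line at 2.65 and 2.80, whereas Nr4a2 is at 1.79 and 0.06 and Nr4a1 at 0.27 and -0.86, and the axes share the Cebpa_KO libraries.

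In the list of 12 T cell receptor induced companions of NR4A, all were tested, and Myc rose while Egr2 and Cd5 fell (9.93% and 9.82% of all genes). Myc, a driver of growth, went from 122.5 ± 13.3 to 231.4 ± 28.6, and Egr2, a zinc finger factor of tolerance, from 127.2 ± 4.29 to 94.2 ± 3.40. Cd5, whose level reports antigen receptor signal strength, went from 694.4 ± 49.4 to 458.0 ± 13.6 (limma adjusted p = 0.0128, 0.0207 and 0.0154). All 3 were lost without WT replicate 2 (limma adjusted p = 0.0548, 0.0687 and 0.0538). Egr1, at 149.9 to 189.8 in WT libraries against 124.5 and 123.4, did not pass (limma adjusted p = 0.0546). The list's median difference was -0.28.

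The orphan receptors Nr2c1, Nr2c2 and Nr2f6 did not pass, with differences of 0.24, -0.42 and 0.00 (SE 0.18, 0.22 and 0.16). Nr2c2 was at 16.7, 20.7 and 15.0 in WT libraries against 10.3 and 15.6. Nr2c1 was at 4.03 to 5.76 against 6.34 and 5.32, and Nr2f6 at 7.25 to 9.81 against 8.56 and 8.08. A large part of the Nr2f6 locus, 5239 bases, overlaps Ocel1 on the other strand, at 7.27 to 15.9. The Nr2c2 locus shares 4770 bases with Mrps25 on the other strand, at 13.1 to 16.1.

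Coactivators and corepressors carry the transcriptional effect of these receptors. Of 14 coactivators 13 were tested and none passed in limma, with 4 of the 13 at an unadjusted p under 0.05, where 37.6% of all genes were. These 4, Ncoa2, Ncoa3, Ncoa4 and Crebbp, had differences of -0.48, -0.51, -0.26 and -0.46. The median of the coactivators was -0.26. All 12 genes of the corepressor list were tested, and Nrip1 and Bcl6 fell (9.82% of all genes). Nrip1, a corepressor that binds ligand-loaded receptors, went from 123.1 ± 6.62 to 61.0 ± 9.52 (difference -1.01, limma adjusted p = 0.00944). Bcl6, a transcription factor of follicular T cells that recruits the same corepressor complexes, went from 50.1 ± 8.78 to 27.2 ± 3.47 (limma adjusted p = 0.0311, and 0.0920 without WT replicate 2). Gps2 and Tbl1xr1, subunits of the NCoR complex, differed by -0.28 and -0.59 and did not pass. Hdac3, a deacetylase of the corepressor complex, differed by 0.02 and did not pass. Ncor1 varied within groups, at 53.7, 160.8 and 54.5 in WT libraries against 41.3 and 88.6. The corepressor median was -0.24.

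**Figure D4:**
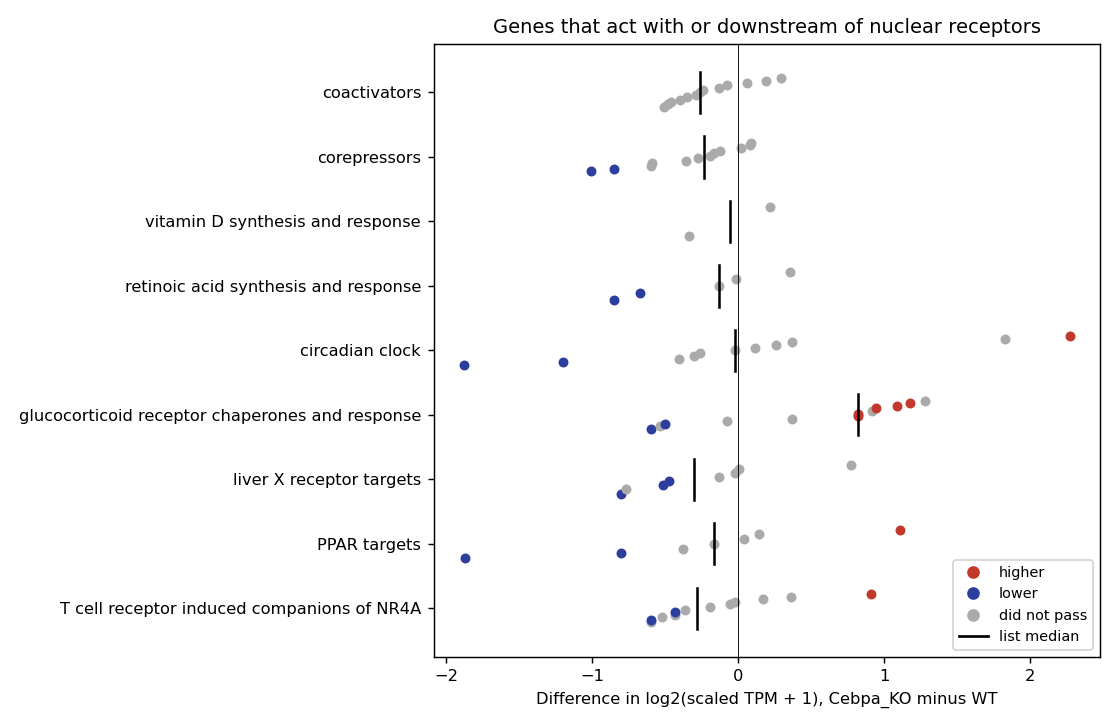
Difference in log2(scaled TPM + 1), Cebpa_KO minus WT, of each tested gene in 9 lists of receptor partners and target genes, with the list median as a black line. Genes that passed are red (higher) or blue (lower). The median of the glucocorticoid receptor list at 0.82 lies furthest from 0, with 5 rises that are all chaperones or cochaperones. Measured from WT replicate 3 alone, that median was -0.06.

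The remaining 23 receptors were below the filter. Besides Pparg, 22 were under a TPM of 1 in every library, 3 of them (Nr1h4, Nr1i2 and Nr0b1) listed at 0 throughout and 14 under 0.1. Between these limits were 5 receptors. Thrb, a thyroid hormone receptor, was at 0.809, 0.559 and 0.783 in WT libraries against 0.177 and 0.269, and Nr3c2, the mineralocorticoid receptor, at 0.487, 0.469 and 0.212 against 0.103 and 0.0751. Esr1, the estrogen receptor alpha, was at 0.120, 0.154 and 0.183 against 0.264 and 0.409. These 3 had groups that did not overlap, as did 56.7% of all genes tested, but levels too low to be tested. Thra stood at 0.186 to 0.982 and Nr6a1 at 0.175 or less. Esr2, Pgr, Esrrb, Hnf4a, Nr2e3, Nr2f1, Nr2f2, Nr5a1, Nr5a2, Nr0b2, Rorb, Ppara, Rarb and Rxrg made up the 14 receptors between 0 and 0.1, so hormone receptors of estrogen beta and progesterone were close to 0 in Tfr cells of both groups.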

How the data were processed

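RNA of 5 Tfr libraries was prepared with an ultra-low-input SMART-Seq kit and Nextera XT, per the labels' protocols. Per the submitters' processing notes, the authors used STAR 2.7.11b, StringTie 2.1.3b and mm39. Sources used here give neither the annotation release nor the strand setting. The TPM column deposited by the authors was handled as a score, because it holds assembled loci, which sum to 1000000, and annotated genes side by side, and only annotated genes were used. The deposited FPKM and coverage signal served only to estimate depth.

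TPM was divided by a median-ratio factor per library (0.984 to 1.04), taken over 13864 genes that reached a TPM of 1 in every library. The test was limma (version 3.58.1, R 4.3.3, intensity trend) on log2(scaled TPM + 1), for genes that reached a TPM of 1 in 2 or more libraries, and the procedure was tested on simulated data. Alternatives were other pseudocounts, filters, scalings and limma options, a replicate block and left-out libraries.

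The members and lists were chosen with earlier results of these data known. The clock list held Bmal1 also under its former symbol Arntl, which was counted once. All tested members were to be described, with up to 4 genes of each pathway list by smallest p, of which 1 is not reported here. Ppargc1a, Ppargc1b, Ncor1, Hdac3, Fos and Clec9a were named after their values were seen. So were Cyp26a1, Crabp2, Stra6, Ccr9, Srebf1, Scd2, Apoe and Scd1. Tables were read with pandas 2.3.3.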

Additional observations from a re-analysis of the deposited data

How the results depend on the processing

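Vdr kept its direction in all 16 alternatives and passed in all but 2 of them. Its log2 difference lay between 1.80 (pseudocount 5) and 3.104 (pseudocount 0.1), and between 2.63 and 2.82 with a library left out, with an adjusted p of 0.0582 without Cebpa_KO replicate 1 and 0.0678 without Cebpa_KO replicate 2. With 1 Cebpa_KO library left, 34 and 23 of all genes passed, so few calls of any kind can be made there, and the lone library is assumed to vary like the WT libraries. Rxra and Esrra were lower in every alternative that tested them, and Rxra was not tested with the filter at 5.

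The number of genes that passed, 3210 with all libraries, was 1559 with no filter, where 38302 genes were tested, 5015 with array weights, 1661 with WT replicate 3 standing alone for WT, and 23 to 4002 with 1 library left out. The number of receptors that passed was 7 with array weights (3 higher, 4 lower) and 0 to 6 with 1 library left out (0 to 3 higher, 0 to 3 lower). With pseudocount 5 there were 2 higher, and with no filter 1 lower. With the replicate block 4 passed, 2 higher and 2 lower. Nr4a2 (1.79, adjusted p = 0.0224) and Rarg (-0.82, 0.0481) then passed and Esrra (-0.69, 0.0617) did not. Libraries with the same number share only that number in the labels, with correlations of their deviations of -0.18 and 0.27. The deviations of 2 Cebpa_KO libraries from their mean mirror each other. These correlations therefore cannot show whether libraries were paired. Cebpa lay between -3.54 and -3.27 with a library left out, and its adjusted p was 0.0512 without Cebpa_KO replicate 2.

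Changes of sign were limited to genes that had not passed. Nr1h2 was -0.0027 with unscaled TPM, -0.046 with quantile normalization, -0.013 with the block and -0.062 to 0.074 with a library left out. Nr2f6 was -0.0012 with pseudocount 5, -0.0032 unscaled, -0.22 with WT replicate 3 alone and -0.088 to 0.10 with a library left out. Nr4a1 was 0.061 with array weights, 0.27 with the block and -0.33 to 0.27 with a library left out. With WT replicate 3 alone, Nr1h3 was -0.17, Nr4a3 -0.30 and Tgm2 -0.12. Ppard was -0.87 to 0.28 and Rdh10 -0.25 to 0.022 with a library left out, and Rdh10 0.024 with the block. The cause of these changes was not tested. Depth was alike in all libraries, and no counts are in the tables, so no counting limits are given for receptors near 0.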
